A study of Mus musculus with 6 samples.

Results

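Imprinted genes of the H19 and Kcnq1 domains on the far end of mouse chromosome 7 were followed in 6 RNA sequencing libraries of embryonic stem cells. The 10 genes are H19, Igf2, Cdkn1c, Kcnq1, Kcnq1ot1, Phlda2, Slc22a18, Tssc4, Nap1l4 and Cd81, out of 53465 genes counted. They were selected on measured values: H19 and Cdkn1c were higher in BMP-inhibited cells than in controls, and their imprinted neighbours were listed with them. The members' values in that comparison are therefore a description and carry no test.

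The cells were of the established line Royan B20, grown on 0.1% gelatin and passaged 7 times in R2i medium that contained LIF, a cytokine used to keep such cells undifferentiated. All 6 libraries shared that medium, which held 1 µM of an inhibitor of the kinase MEK, PD0329501 as the labels spell it, and 10 µM SB431542, which blocks TGF-beta receptors. The 3 control libraries had no further addition, and 3 libraries called BMP-inhibited here came from cells given in addition 5 µM dorsomorphin, an inhibitor of BMP receptors, and 250 nM noggin, a protein that traps BMP ligands outside the cell. The study asks what BMP4 signalling does for self-renewal in this medium. Blocked BMP signals and any other action of the added pair cannot be told apart. The time of treatment is not given in the sources used here, and p-values measure the spread between the 3 samples of a group, which the labels call biological replicates of a single line.

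An imprinted gene is transcribed mainly from the copy inherited from one parent, because methylation laid down in the germline marks a control region nearby. In the H19 domain, CTCF binds the unmethylated maternal control region and keeps shared enhancers on H19, while the methylated paternal copy expresses Igf2. In the Kcnq1 domain, the paternal copy makes the long antisense RNA Kcnq1ot1, along which Cdkn1c, Phlda2, Slc22a18 and Kcnq1 are silenced, leaving the maternal copies active. Several members at the edges of that domain, among them Tssc4, Nap1l4 and Cd81, are known to be imprinted mostly in placenta. Counts per gene do not separate the parental copies, so each value below is the sum of both.

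The H19 domain also yields small RNAs, shown here because their hairpins lie inside members that were higher. The hairpin of miR-675 lies in an exon of H19, and that of miR-483 in an intron of Igf2 (GENCODE M21). The mature sequences from RefSeq (GRCm38.p6) have the seed, bases 2 to 8, in capitals, and no seed is shared among them.

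mmu-miR-675-5p: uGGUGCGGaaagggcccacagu

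mmu-miR-675-3p: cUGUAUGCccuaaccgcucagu

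mmu-miR-483-5p: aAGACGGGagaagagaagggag

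mmu-miR-483-3p: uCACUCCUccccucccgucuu

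On chromosome 7 these lie on the minus strand at 142577112 to 142577133, 142577078 to 142577099, 142654968 to 142654989 and 142654932 to 142654952. The libraries were made from poly(A) RNA, which does not measure mature small RNAs, and the count rows of both hairpins held 0 reads in all 6 libraries. The miR-675 hairpin lies wholly within exon bases of H19 on the same strand. Reads on such shared bases were counted for neither gene, so its 0 follows from the counting.

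Promoter sequences of 6 of the 10 members were found in RefSeq's table for GRCm38.p6, with 9 transcript starts, 4 of them of Igf2. The 250 bases before the start were searched on both strands for the CCAAT box, for the GC box with the letters GGGCGG and for the TATA box with the letters TATAAA. A pair of elements bound by SMAD proteins, which carry BMP signals, was searched too: the GC-rich element GGCGCC and, as a palindrome, GTCTAGAC. The stretches below show Igf2, which was higher, and Kcnq1ot1, whose start lies in the domain's control region. Capitals mark matches on either strand.

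Igf2, chr7:142657497-142657746, minus strand: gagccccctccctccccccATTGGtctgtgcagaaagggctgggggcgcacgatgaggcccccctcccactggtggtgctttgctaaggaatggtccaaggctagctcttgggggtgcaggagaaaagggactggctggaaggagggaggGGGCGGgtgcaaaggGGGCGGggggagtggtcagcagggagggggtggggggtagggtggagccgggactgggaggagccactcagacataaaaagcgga

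Kcnq1ot1, chr7:143296548-143296797, minus strand: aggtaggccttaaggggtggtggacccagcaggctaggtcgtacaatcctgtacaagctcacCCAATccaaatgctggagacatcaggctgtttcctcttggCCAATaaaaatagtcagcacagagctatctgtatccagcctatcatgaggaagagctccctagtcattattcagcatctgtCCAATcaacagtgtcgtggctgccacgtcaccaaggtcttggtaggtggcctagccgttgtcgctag

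The Kcnq1ot1 stretch held CCAAT at 3 places and no GC box. This Igf2 stretch, at the most downstream of its 4 starts, held 2 GC boxes and 1 CCAAT. The stretch of Phlda2, whose letters are not shown, held 2 GC boxes, a TATA box, a CCAAT box and, overlapping it, the GC-rich SMAD element. That element was found at no other of the 9 starts, and the palindrome at 0 of them. Over 32851 promoter stretches of the same length, 33.8% held a CCAAT box, 32.7% a GC box, 12.4% a TATA box, 9.59% the GC-rich element and 0.167% the palindrome.

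The files held 31474666 to 35322844 reads in genes per library. By principal components BMP-inhibited replicate 2 stood apart from the other 2 of its group on the second component, which held 5.54% of the variance against 82.6% for the first. Without it the log2 fold change of H19 was 3.48.

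Levels are given as CPM, reads of a gene relative to all reads in genes of its library, scaled between libraries by the TMM method. Igf2, H19 and Cdkn1c were 12.3-fold, 10.4-fold and 8.36-fold higher in BMP-inhibited cells, and the other tested members differed by less than 1.5-fold in either direction. In bulk samples such as these, fewer cells of a type and less RNA per cell cannot be told apart. H19 (ENSMUSG00000000031, chromosome 7, 142575529 to 142578143 on GRCm38, minus strand), a non-coding RNA that is abundant in embryonic and extraembryonic tissue, stood at 14.7, 13.8 and 14.9 CPM in control replicates 1, 2 and 3. In the BMP-inhibited replicates it stood at 159, 126 and 163 CPM. The groups were far apart, and replicate 2 was the lowest of the BMP-inhibited libraries. The means were 14.4 ± 0.554 and 149.6 ± 20.5 CPM (SD, n = 3) and the log2 fold change 3.37 (SE 0.09).

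Igf2 (ENSMUSG00000048583, 142650766 to 142666816, minus strand), the fetal growth factor next to H19, was scarce in both groups. Its libraries held 7, 15 and 17 counts in control and 153, 131 and 160 in BMP-inhibited cells. That is 0.205, 0.414 and 0.513 CPM against 4.94, 4.21 and 4.87 CPM, with no overlap and a log2 fold change of 3.62 (SE 0.26). Of its 5723 exon bases, 62.8% are shared on the same strand with Gm49394, an overlapping gene model. Genes lying wholly inside exons of another gene on the same strand held almost no reads in these files (41 to 76 per library over 679 genes), so shared bases were counted for neither gene and the Igf2 level is a low estimate in every library. With the counts of both genes added, the log2 fold change was 3.49, and reads on the shared bases are missing from that sum too.

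H19 and Igf2 differ in which parental copy is active, and both were higher. The ratio of H19 to Igf2 counts was 71.6, 33.4 and 29.0 in the control libraries and 32.2, 29.97 and 33.5 in the BMP-inhibited ones. The groups overlapped in this ratio, whose control values rest on few Igf2 reads. H19 made up 2.16% to 2.30% of the reads of all 10 members in control libraries and 15.3% to 18.8% in BMP-inhibited ones.

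Cdkn1c (ENSMUSG00000037664, 143458339 to 143461050, minus strand) encodes p57, an inhibitor of cyclin-dependent kinases that restrains growth of the fetus and placenta. It stood at 4.89, 4.77 and 3.38 CPM in control and at 36.9, 33.7 and 38.8 CPM in BMP-inhibited libraries. The groups did not overlap, control replicate 3 was the lowest control, and the log2 fold change was 3.06 (SE 0.11). Among 15951 tested genes ordered from the highest log2 fold change, Igf2 ranked 148, H19 ranked 166 and Cdkn1c ranked 202.

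**Figure D1:**
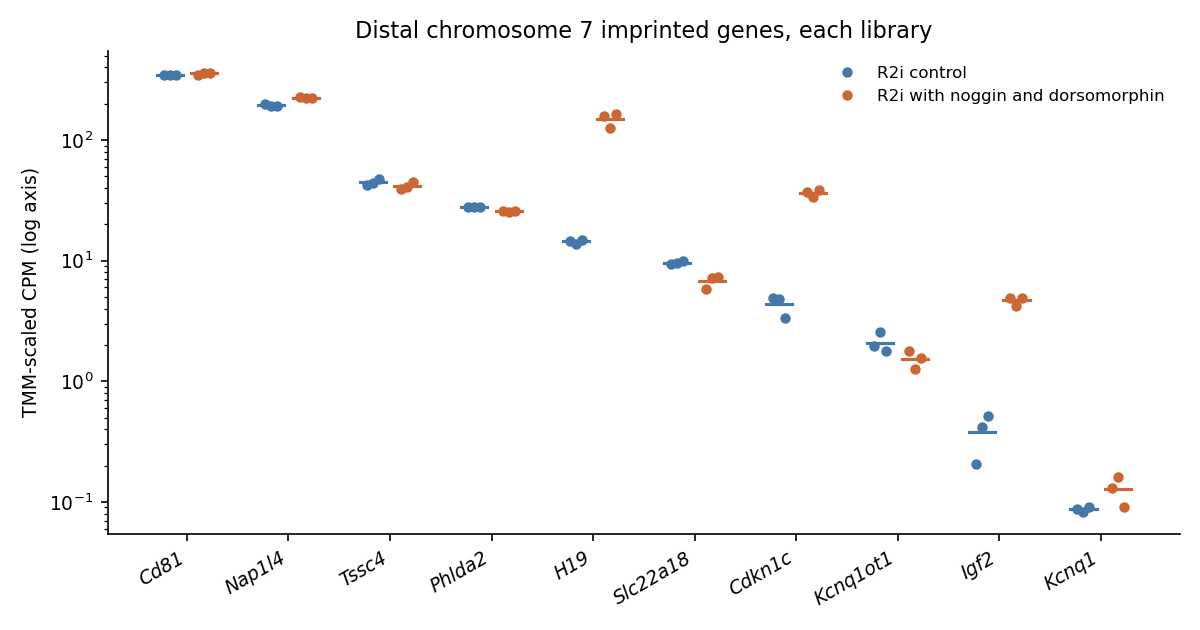
Level of each member in each library, as TMM-scaled CPM on a log axis, with control libraries in blue and BMP-inhibited libraries in orange (replicates 1 to 3 from left to right, bars at the group mean). H19, Cdkn1c and Igf2 separate widely, from means of 14.4, 4.35 and 0.377 CPM to 149.6, 36.5 and 4.67 CPM, while the other members lie close together or, for Kcnq1, near 0.1 CPM.

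Kcnq1ot1 (ENSMUSG00000101609, 143203458 to 143296549, minus strand), the silencing RNA of the Kcnq1 domain, was scarce and not higher. It stood at 1.96, 2.54 and 1.78 CPM in control and at 1.78, 1.25 and 1.55 CPM in BMP-inhibited libraries. The groups touch, with the lowest control (59 counts) and the highest BMP-inhibited library (55 counts) at nearly the same CPM. The log2 fold change was -0.46 (SE 0.23). Kcnq1 (ENSMUSG00000009545, 143106362 to 143427042, plus strand), a potassium channel gene whose body contains Kcnq1ot1, held 3, 3 and 3 counts in control and 4, 5 and 3 in BMP-inhibited libraries. Kcnq1 was too low for the count filter, and a difference was not detectable at this depth. The library kit keeps strand, and 447 genes lying wholly inside exons of a gene on the other strand held 4187 to 6816 reads per library. The 121 exon bases of Kcnq1 that face Kcnq1ot1 were therefore counted by strand.

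Of the genes from Cdkn1c to the far edge of the domain, Phlda2 and Nap1l4 differed by less than 1.2-fold between the groups. Phlda2 (ENSMUSG00000010760), which limits placental growth, stood at 27.7, 27.7 and 27.9 CPM in control and at 25.8, 25.5 and 25.7 CPM in BMP-inhibited libraries. The libraries within a group were alike, the groups did not overlap, and the log2 fold change was -0.11 (SE 0.06). Slc22a18 (ENSMUSG00000000154), a membrane transporter gene, stood at 9.36, 9.60 and 9.92 CPM against 5.84, 7.22 and 7.28 CPM. All 3 BMP-inhibited libraries were below the controls, with a log2 fold change of -0.50 (SE 0.11). Nap1l4 (ENSMUSG00000059119), a histone chaperone, stood at 198, 193 and 192 CPM against 228, 222 and 224 CPM, higher in each BMP-inhibited library with a log2 fold change of 0.21 (SE 0.04).

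Tssc4 and Cd81, on the other side of Kcnq1, overlapped between groups. Tssc4 (ENSMUSG00000045752), a factor in assembly of the splicing machinery, stood at 42.7, 44.1 and 47.3 CPM against 39.4, 40.6 and 44.6 CPM. Cd81 (ENSMUSG00000037706), a tetraspanin of the cell surface and the most abundant member, stood at 344, 344 and 349 CPM against 348, 362 and 360 CPM. Their log2 fold changes were -0.10 (SE 0.06) and 0.04 (SE 0.04). With library totals in place of TMM scaling, that of Cd81 was -0.01.

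Cdkn1c and Phlda2 are both maternally expressed and under the same control region. Since Cdkn1c was chosen for being higher, ratios that contain it restate that choice and are given as values only. The ratio of Cdkn1c to Phlda2 counts was 0.176, 0.172 and 0.121 in control and 1.43, 1.32 and 1.51 in BMP-inhibited libraries. The ratio of Kcnq1ot1 to Cdkn1c counts went from 0.401, 0.532 and 0.527 to 0.0482, 0.0372 and 0.0400.

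Of the 10 members, 9 passed the count filter and Kcnq1 did not. Igf2, with 7 counts in control replicate 1, passed only through the BMP-inhibited group, so its direction was largely set by the filter. At an adjusted p of 0.05 or less in edgeR's quasi-likelihood test, 4 of the 9 were higher (H19, Igf2, Cdkn1c, Nap1l4) and 1 was lower (Slc22a18). Over all 15951 genes tested the share called was 64.2%, with 32.5% higher and 31.7% lower. Of the 9, 3 (H19, Igf2, Cdkn1c) were called and at least 2-fold higher, against 8.01% of all tested genes. The groups did not overlap for 7 of the 9, 4 above control and 3 below, against 68.6% of all tested genes, 34.5% above and 34.1% below. Since the comparison chose the members, nothing is read from these counts. The median log2 fold change was 0.04 over the 9 and 0.00 over all genes tested.

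To compare genes with each other, levels were divided by exon length. In control cells the order per kb was Cd81 (120.1 ± 1.00 CPM per kb, SD, n = 3), Nap1l4 (62.9 ± 1.05), Phlda2 (24.8 ± 0.068), Tssc4 (24.2 ± 1.27), H19 (5.87 ± 0.225), Slc22a18 (5.67 ± 0.165), Cdkn1c (2.13 ± 0.412), Igf2 (0.0659 ± 0.0275), Kcnq1ot1 (0.0225 ± 0.00426) and Kcnq1 (0.0213 ± 0.000955). The ranges of Phlda2 and Tssc4, of H19 and Slc22a18, and of Kcnq1ot1 and Kcnq1 overlapped. In BMP-inhibited cells H19 took the third place at 60.8 ± 8.32 CPM per kb, below Nap1l4 at 72.5 ± 1.03, and Cdkn1c the sixth at 17.9 ± 1.27, below Tssc4 at 22.5 ± 1.49. Among tested genes with an exon length, H19 moved from percentile 54.7 to percentile 94.5 of level per kb. Cdkn1c moved from 36.6 to 78.4, and Igf2 from 2.97 to 23.5. Igf2 values per kb are low estimates, since its length includes the 62.8% of exon bases shared with Gm49394.

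**Figure D2:**
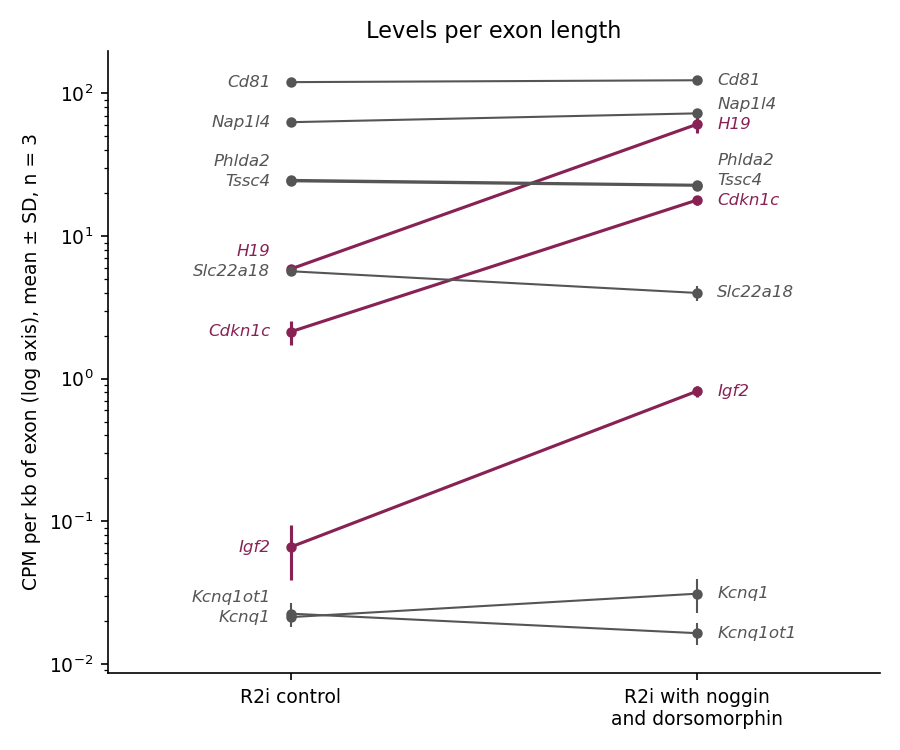
Mean level per kb of exon on a log axis in the control and BMP-inhibited groups, with SD bars over 3 libraries and 1 line per member. H19, Cdkn1c and Igf2 (dark red) climb across the order, H19 from 5.87 to 60.8 CPM per kb, while the means of the other members differ by less than 1.5-fold.

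Around the members, every annotated gene overlapping chromosome 7 from 500 kb before H19 to 500 kb after Nap1l4 was examined. This window held 86 other genes, of which 45 had 0 counts in every library and 20 passed the count filter. By edgeR's test 6 of the 20 rose and 5 fell, 55% called against 64.2% of all genes, with a median log2 fold change of -0.06. The low genes among them could pass the filter through the group where they are high. Of the called neighbours, Dusp8, Gm33148, Gm49394 and Igf2os passed only through the BMP-inhibited group, and Trpm5 only through the control group. The direction of these genes was thus largely set by the filter, and their adjusted p-values are no support for it.

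The tested neighbours nearest to H19 and Igf2 went both ways: Gm33148, Igf2os and Gm49394 rose, and Mrpl23 fell. Neighbours that are not protein-coding (Igf2os, Gm33148, and Tspan32os further on) or were not called were named after their values were seen. Igf2os, the antisense transcript of Igf2, held 10, 7 and 22 counts in control libraries and 112, 109 and 111 in BMP-inhibited ones. The groups were far apart, by 3.20 on the log2 scale (SE 0.31). Gm49394, which shares exons with Igf2, had 9 and 53 counts (log2 fold change 2.63). Gm33148, a non-coding gene between H19 and Igf2, had 27 and 119 counts (log2 fold change 2.24). Farther off, on the side of H19 away from Igf2, Dusp8, a phosphatase of MAP kinases, rose from 0.544 ± 0.261 to 5.41 ± 0.622 CPM, by 3.31 on the log2 scale (SE 0.26).

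Mrpl23, a mitochondrial ribosomal protein gene between Dusp8 and H19, fell from 27.3 ± 0.428 to 18.0 ± 1.46 CPM (log2 fold change -0.60). On the same side of H19, the lysosomal protease gene Ctsd was abundant and was not called, at 295 ± 4.61 and 311 ± 18.1 CPM. Mrpl23 was lower in all 3 BMP-inhibited libraries, and the Ctsd groups overlapped.

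Between the domains, Ascl2, a transcription factor of trophoblast that is itself imprinted, rose from 5.44 ± 0.850 to 7.60 ± 0.514 CPM, by 0.48 on the log2 scale (SE 0.13) at an adjusted p of 0.00499. Trpm5, a cation channel gene beside Tssc4, held 49 counts over the control group and 4 over the other, and fell by 3.37 on the log2 scale (SE 0.66). Tspan32os fell from 333 to 86 counts (log2 fold change -1.82), and Tspan32 itself was not called (log2 fold change -0.40, adjusted p = 0.0545). Beyond Nap1l4, Tnfrsf22 and Nadsyn1, a decoy death receptor and an enzyme of NAD synthesis, fell with log2 fold changes of -0.58 and -0.75, and the cholesterol synthesis gene Dhcr7 rose by 0.88. Cars, next to Nap1l4, stood at 253 ± 1.54 and 260 ± 8.69 CPM (adjusted p = 0.429). Without a count filter 11 of 41 neighbours rose, against 5606 of 28371 genes in all. With a minimum of 1 CPM in every library 2 rose and 3 fell of 10, against 4312 and 4286 of 12470 genes in all.

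**Figure D3:**
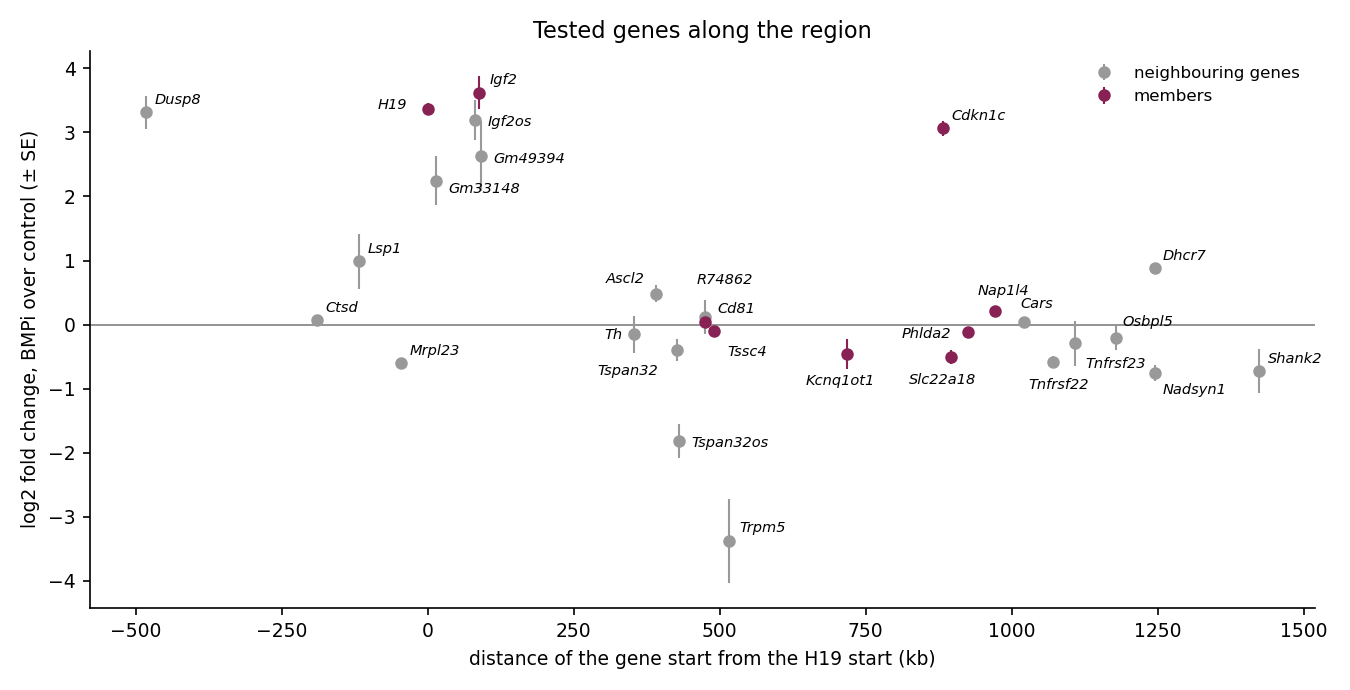
Log2 fold change (BMP-inhibited over control, ± SE) of each tested member (dark red) and neighbouring gene (grey) against the distance of its start from the H19 start in kb. High values stand at Dusp8, around H19 and Igf2, and at Cdkn1c, with Trpm5 the lowest at -3.37.

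Of 22 tested factors that set, keep, read or erase imprints, 12 rose and 4 fell (72.7% called, background 64.2%), with a median log2 fold change of 0.11. Dppa3, an egg-derived factor that protects methylation marks in the zygote, rose from 10.4 ± 0.605 to 51.8 ± 10.1 CPM, by 2.31 on the log2 scale (SE 0.12) at an adjusted p of 2.3e-10. The genes of zinc-finger proteins that hold imprints fell, Zfp445 from 155.8 ± 1.19 to 86.5 ± 10.9 CPM (log2 fold change -0.85) and Zfp57 from 856 ± 15.9 to 643 ± 9.58 CPM (log2 fold change -0.41). Rad21, a cohesin subunit, rose by 0.48. Named after their values were seen, for their role in these domains, were Ctcf, Dnmt1 and Ehmt2. Ctcf rose from 185.0 ± 1.45 to 216 ± 7.06 CPM (log2 fold change 0.22, adjusted p = 0.000232), and Dnmt1, the maintenance methyltransferase gene, from 478 ± 1.76 to 515 ± 11.7 CPM (log2 fold change 0.11, adjusted p = 0.02). Dppa3 was the single gene of this list that rose at least 2-fold.

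Chromatin factors linked to silencing along the Kcnq1 domain were listed with the RNA-binding protein gene Hnrnpk. Of these 11 genes, 7 were higher, Hnrnpk among them (log2 fold change 0.17), and 2 were lower (81.8% called). The background over all tested genes was 64.2% called, 32.5% higher and 31.7% lower. The polycomb genes Suz12, Jarid2 and Pcgf3 rose by 0.71, 0.66 and 0.70, and Ring1 fell by 0.85 on the log2 scale. Ehmt2, a histone H3 lysine methyltransferase gene needed for part of this silencing in placenta, stood at 183 ± 2.27 and 184 ± 6.59 CPM (adjusted p = 0.955).

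Among receptors and binding proteins of IGF2, 3 rose and 5 fell of 10 tested (80% called, background 64.2%). Igf2r, the clearance receptor for IGF2, went from 225 ± 4.22 to 132 ± 13.01 CPM, and fell by 0.77 on the log2 scale (SE 0.06) at an adjusted p of 1.5e-08. The secreted binding proteins Igfbp3 and Igfbp2 rose by 2.09 and 0.79, and Igf2bp3, which binds Igf2 mRNA, fell by 0.75 on the log2 scale. These 4 genes, named for having the smallest p of the list, did not overlap between the groups. Of the 10 tested, 3 lay above control, 5 below and 2 overlapped. Over all tested genes 68.6% did not overlap, so nothing is read from this.

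Cell-cycle partners of p57 went both ways, with 4 higher and 6 lower of 12 (83.3% called, background 64.2%). The related inhibitors of the CIP/KIP family moved in opposite directions: Cdkn1a, which encodes p21, rose from 81.7 ± 3.08 to 139 ± 4.04 CPM (log2 fold change 0.76), and Cdkn1b, which encodes p27, fell from 93.4 ± 0.978 to 53.7 ± 4.76 CPM (log2 fold change -0.80). Cdk4 and Cdk2, kinases that this family binds, fell with log2 fold changes of -0.53 and -0.44. Per kb of exon, Cdkn1c stood at 2.13 CPM in control cells, below Cdkn1a at 23.0 and Cdkn1b at 20.5. In BMP-inhibited cells it stood at 17.9 CPM per kb, below Cdkn1a at 39.1 and above Cdkn1b at 11.8.

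Of 13 tested relatives of the members by gene family, 6 rose and 4 fell (76.9% called, background 64.2%), with a median log2 fold change of 0.28. Phlda1 and Phlda3, relatives of Phlda2, rose by 2.74 and 1.21 on the log2 scale, and Nap1l1, a relative of Nap1l4, by 0.50. Cd151, a tetraspanin like Cd81, fell by 0.48. Without control replicate 1, or without BMP-inhibited replicate 1, 2 relatives fell in place of 4.

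**Figure D4:**
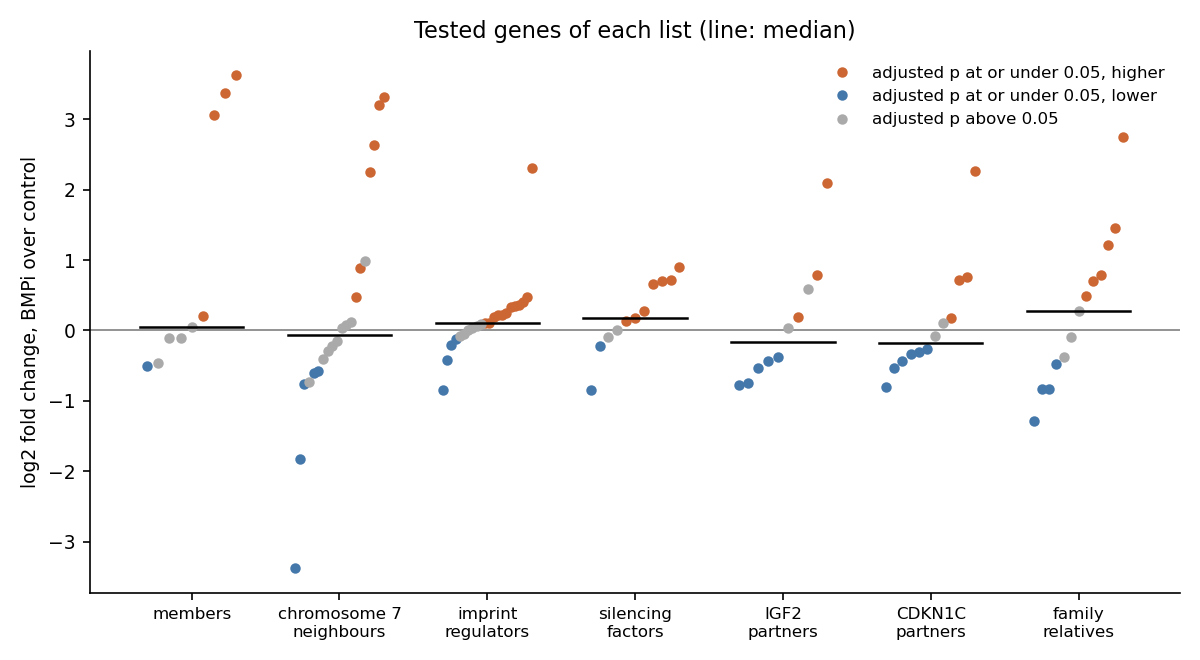
Log2 fold change of each tested gene (points) by list, coloured by edgeR's adjusted p, with the list median as a line. Medians lie between -0.17 and 0.28, while H19, Igf2 and Cdkn1c stand above 3 among the members.

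The genes most like H19 and Cdkn1c over the 6 libraries were found by the Euclidean distance between log2 CPM values centred on each gene's mean. Tested genes with no symbol, or with a predicted or clone name, were left out of this ranking. For H19 they were Bglap3 (0.302), H2-Eb1 (0.392), Olfr1459 (0.418), Cyp1a1 (0.439) and Pramel7 (0.477). Bglap3, an osteocalcin-like gene, went from 388 to 3292 counts over the groups, and Olfr1459, an olfactory receptor gene, from 0 to 64. For Cdkn1c they were Selenoi (0.338), Cxcl10 (0.338), Slc41a2 (0.434), Phlda1 (0.441) and Nr4a3 (0.443). Selenoi, an enzyme of phospholipid synthesis, went from 306 to 2483 counts and Cxcl10, a chemokine, from 2 to 66. Cdkn1c held rank 17 by likeness to H19 and Igf2 rank 42, while H19 held rank 28 by likeness to Cdkn1c. Since H19 and Cdkn1c were chosen for being higher, their likeness restates that choice, and nothing is read from these ranks. Distances of genes with few counts depend on the prior count of 2 used in the logarithm.

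The libraries were checked for the labelled cell type and for others that the cultures could hold. The counts of called markers stand beside a background over all tested genes of 64.2% called, 32.5% higher and 31.7% lower. Markers scarce in control cells could pass the count filter only through the BMP-inhibited group, so their direction was largely set by the filter. Genes named below that are not among the 4 of smallest p in their list were named after their values were seen.

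Of 12 pluripotency markers, 3 rose and 7 fell (83.3% called), and their summed level was 5846 to 6034 CPM in control libraries and 5286 to 5550 CPM in BMP-inhibited ones. Utf1 and Dppa5a rose by 0.87 and 0.83 on the log2 scale, and Klf4 and Nanog fell by 0.81 and 0.47. Pou5f1, a core stem cell factor, stood at 825 and 887 CPM and was not called.

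Trophoblast is a lineage in which H19, Igf2, Cdkn1c, Phlda2 and Ascl2 are known to be expressed. Of its 15 markers 11 were tested, of which 9 rose and 0 fell (81.8% called), with summed levels of 233 to 237 and 398 to 489 CPM. The keratin gene Krt18 rose from 12.0 ± 0.799 to 78.3 ± 11.8 CPM, and its partner Krt8, at 18.1 ± 0.807 CPM in control cells, rose to 89.96 ± 15.7 CPM. The transcription factor genes Gata3 and Hand1 went from 239 to 1457 and from 10 to 579 counts over the groups, log2 fold changes of 2.73 and 5.92. Eomes (8.95 and 9.20 CPM) and Tfap2c (128 and 137 CPM) were not called. The 4 markers that were not tested were Cdx2, with 2 and 43 counts, Elf5, with 11 and 14, Tpbpa, with 0 and 1, and Prl3d1, at 0 in all libraries.

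Markers of 2-cell-like cells, a rare state of stem cell cultures, summed to 0.0276 to 0.0878 CPM in control libraries and 27.3 to 41.2 CPM in BMP-inhibited ones. Of the 10, 6 were at 0 in all control libraries, so no count of calls is given. Zscan4c, for example, had 0 and 703 counts over the groups.

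Of 13 fibroblast markers 8 were tested, with 5 higher and 1 lower (75% called) and sums of 16.3 to 18.0 and 25.1 to 27.0 CPM. The contractile genes Acta2 and Tagln went from 0 to 226 and from 49 to 316 counts over the groups, while Dcn and Lum had at most 1 count in either. Of 10 mesoderm markers 4 were tested, with 3 higher (75% called) and sums of 1.87 to 1.96 and 4.82 to 5.69 CPM, and T had 3 and 9 counts. Of 12 primitive endoderm markers 9 were tested, with 4 higher and 3 lower (77.8% called) and sums of 710 to 722 and 741 to 792 CPM. Lama1 fell by 1.59 on the log2 scale, and Afp and Ttr had at most 3 counts in either group.

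BMP-inhibited replicate 2 was the lowest of its group in the trophoblast, 2-cell and mesoderm sums, as it was for H19, Igf2 and Cdkn1c. It was the highest of its group in the fibroblast, primitive endoderm and pluripotency sums. The part of these other cell states in the values of H19, Igf2 and Cdkn1c was not tested.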

How the data were processed

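RNA was sequenced from 6 libraries of Royan B20 cells, 3 per group, grouped by the treatment in their titles. The deposited files hold raw read counts per gene, made by the authors. Per the submitters' processing notes, which give no roles, the build was GRCm38.p6 and the tools included HTSeq 0.9.1 and DESeq2, the aligner STAR 2.6.1, and CASAVA 1.8.2 with cutadapt 1.4.2. Annotation release and strand setting are not given in the sources used here. The 5 rows that name no gene (25.6% to 26.4% of reads) were left out. Of 53465 genes, 53360 matched GENCODE M21 (GRCm38), the source of positions and exon lengths.

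edgeR 4.0.16 (R 4.3.3) was used with TMM scaling, its default filter on low counts (15951 genes kept), and the two-sided quasi-likelihood test with Benjamini-Hochberg adjustment over all genes tested at 0.05. It was tested on simulated data. Replicate numbers showed no pairing of the samples, which were treated as unpaired. Alternatives were DESeq2 1.42.0, other scalings and filters, a replicate block and leaving out each library.

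The members and gene lists were chosen with earlier results of these data known. Named were all members, up to 4 genes of smallest p per list, every called protein-coding neighbour, and the 5 genes most like H19 and Cdkn1c, with exceptions stated in the text.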

Additional observations from a re-analysis of the deposited data

How the results depend on the processing

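Of 182 counts of called genes under 13 alternatives, 176 stayed within 1.5 times the reported count and 6 did not. Neighbours that rose numbered 11 with no count filter, which tested 41, and 2 with the stricter filter, which tested 10 and left 3 lower. Over all genes, 5606 of 28371 rose with no count filter. With the stricter filter 4312 rose and 4286 fell of 12470. Family relatives that fell numbered 2 with the stricter filter, and 2 to 5 when each library was left out. Over all genes, leaving out each library gave 4670 to 5436 higher and 4597 to 5244 lower. With library totals only, 4537 were higher and 5692 lower, so the share of calls that were higher went from 50.6% to 44.4%, and the median log2 fold change to -0.06. Under that scaling Phlda2 (-0.17) and Tssc4 (-0.16) were also called lower and Cd81 was at -0.01. Over the alternatives H19 ranged from 3.31 to 3.48, Igf2 from 3.33 to 3.88, Cdkn1c from 2.91 to 3.15 and Kcnq1ot1 from -0.57 to -0.30. Igf2 was not tested under the stricter filter. With a replicate block 5149 genes were higher and 5061 lower. After each gene's group mean was subtracted, the remaining deviations of same-numbered libraries correlated at -0.044, 0.008 and 0.029. The numbers therefore showed no pairing of the libraries, and not every library correlated best with its own number. With 3 libraries per group these correlations cannot exclude a pairing. Depth limits Kcnq1, with 3 to 5 counts per library, and the Igf2 control values, with 7 to 17. Adding the Gm49394 counts to Igf2 was chosen after seeing the data.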

Other observations

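The members differed in how far libraries of a group lay from each other. The SD of H19 in log2 CPM was 0.056 in control libraries and 0.206 in BMP-inhibited ones, where tested genes of like level (within 0.5 on the log2 scale) had medians of 0.076 and 0.065. Cdkn1c had 0.294 in control, against a median of 0.142, and 0.103 in BMP-inhibited libraries, against 0.087. Phlda2 had 0.0039 and 0.0082, against medians of 0.057 and 0.094. With 3 libraries per group these SDs are themselves imprecise, and no test was made.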
